A study of Mus musculus with 474 samples.

Results

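Pmp22, Prx and Mbp are 3 genes of Schwann cells and their myelin sheath, taken by gene symbol from the 20612 genes with values. All 3 passed the filter on low counts and were among the 18823 genes tested. Schwann cells wrap the axons of peripheral nerves, and those around large motor and sensory fibres lay down myelin, a stack of membrane that speeds the nerve impulse. A muscle holds the nerve branches that reach its fibres, so myelin transcripts in whole muscle are read from a small cell population inside a tissue made mostly of muscle fibres. Pmp22 encodes a tetraspan membrane protein of compact myelin whose gene dosage underlies common inherited neuropathies. Prx encodes periaxin, a scaffold that ties the Schwann cell membrane to the surrounding basal lamina through a complex with DRP2 and dystroglycan. Mbp encodes myelin basic protein, which holds the cytoplasmic faces of the myelin membrane together, and the same gene also gives the Golli transcripts known from immune cells.

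The data are RNA-seq libraries of skeletal muscle, 1 from each Diversity Outbred (DO) mouse. According to the methods the muscle was the gastrocnemius. DO mice are an outbred stock in which every animal carries its own mixture of the genomes of inbred founder strains. All animals ate a high-fat, high-sugar diet labelled 45percent fat, and there was no group on another diet and no group with an engineered allele. The labels give no age. The libraries were divided by sex and by a number in the title (17, 18, 19, 21 or 23) that was read here as the generation of the stock, which gave 10 groups of 45 to 50 animals. Only some of the 5 numbers are called generations in the methods, so that reading is an assumption.

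The total count per library ranged from 35.9 to 165.7 (in units of 1e6 counts), with a median of 79.3 in both sexes. In 5 libraries, 3 labelled female and 2 labelled male, the sex-linked genes Xist and Ddx3y went against the label. They were kept, and results by sex are also given without them. Genes of fast muscle fibres (8 listed) summed to a median of 143032 counts per 1e6 counts (CPM) in females and 143494 CPM in males, as the label skeletal muscle would have it. Of 8 listed oligodendrocyte genes, 2 had values and were at 0.0956 to 1.397 CPM in sum in females and 0.135 to 1.31 CPM in males. The other 6 were not analysed here. In whole tissue, a lower number of Schwann cells and less RNA per Schwann cell cannot be told apart.

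Pmp22 (ENSMUSG00000018217) lies on the plus strand of chromosome 11 from 63128982 to 63159547 (GRCm38), Prx (ENSMUSG00000053198) on the plus strand of chromosome 7 from 27497388 to 27520214, and Mbp (ENSMUSG00000041607) on the plus strand of chromosome 18 from 82475146 to 82585637. All 3 are annotated as protein-coding, and the values count reads over whole genes, so their transcripts cannot be told apart. The antisense gene Gm15541 overlaps an exon of Prx. It was at 0.285 ± 0.119 CPM (SD) in females and 0.283 ± 0.115 CPM in males and had r = 0.180 with Prx over animals. Whether strand was used in the counting is not given in the sources used here, so reads of Prx and its antisense partner may be mixed. The pseudogene Rpl21-ps8 lies within an intron of Mbp, and no gene of the GENCODE annotation overlaps Pmp22.

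Pmp22 was at 38.9 ± 9.91 CPM (SD) in females, where it ran from 19.02 through a median of 38.1 to 74.9 CPM. In males it was at 37.0 ± 9.46 CPM, from 22.0 through 35.9 to 71.6 CPM. Prx was at 12.4 ± 4.44 CPM in females, from 5.35 through 12.2 to 30.7 CPM, and at 11.7 ± 3.99 CPM in males, from 4.95 through 11.2 to 26.5 CPM. The ranges of the sexes overlapped for both genes. Mbp was at 28.0 ± 10.4 CPM in females, from 11.1 through 27.5 to 68.2 CPM, and at 28.1 ± 9.93 CPM in males, from 11.8 through 27.0 to 59.4 CPM. Per kilobase of merged exons, which corrects for gene length, Pmp22 was the most abundant at 16.1 ± 4.13 CPM per kb over all animals. Mbp followed at 3.32 ± 1.20 CPM per kb and Prx at 2.16 ± 0.759 CPM per kb. The merged exons count every annotated transcript and may be longer than the transcripts used in muscle.

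**Figure D1:**
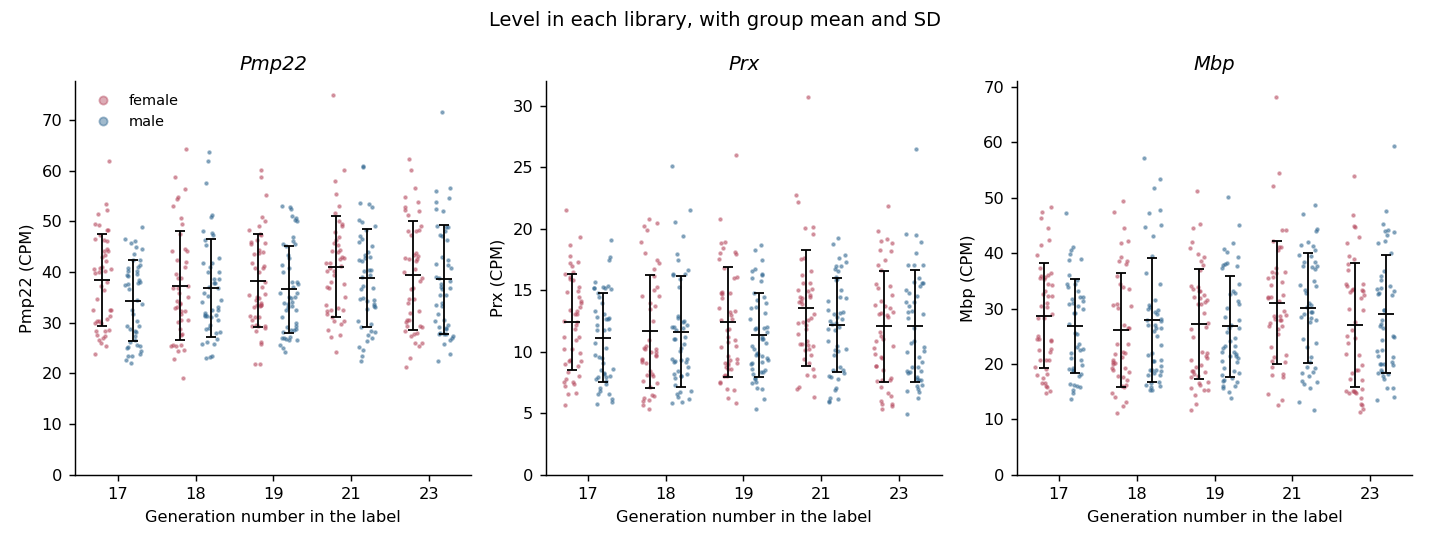
Level of Pmp22, Prx and Mbp in CPM (vertical axis, from 0) in every library, by the generation number in the label (horizontal axis), with females in red and males in blue. Bars give the mean and SD of each of the 10 groups, and the groups overlap for all 3 genes, while the highest animals reach further in some groups, such as females of generation 21.

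The group means of each gene stayed close together. Pmp22 had its highest group mean in females of generation 21, at 41.1 ± 9.95 CPM (n = 46), and its lowest in males of generation 17, at 34.4 ± 7.93 CPM (n = 46). Prx had the same groups at its ends, with 13.6 ± 4.71 CPM and 11.2 ± 3.61 CPM. Mbp was also highest in females of generation 21, at 31.1 ± 11.1 CPM, and lowest in females of generation 18, at 26.2 ± 10.3 CPM (n = 45). Between neighbours in the order of the 10 groups, the largest step was 2.21 CPM for Pmp22, 1.17 CPM for Prx and 1.13 CPM for Mbp. The smallest SD within any group was 7.93, 3.41 and 8.57 CPM, so each step was smaller than the spread between animals. The whole distance from the highest to the lowest group mean was 6.72, 2.43 and 4.89 CPM. These are means of 45 to 50 animals set beside the spread of single animals, which is no test of the means, and the tests by sex and generation are given below.

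Nearly all of the variation in the 3 genes lay between animals of the same group. On the deposited variance stabilised score (VST, a scale close to log2), sex accounted for 0.913% of the variance of Pmp22, 0.584% of that of Prx and 0.0254% of that of Mbp. Generation added 1.67%, 1.16% and 1.63%, and library block, explained below, added 2.18%, 2.33% and 2.96%. After sex and generation were subtracted, the SD over animals was 0.344 VST units for Pmp22, 0.435 for Prx and 0.493 for Mbp. These genes varied more than most genes of like level. Among the genes whose mean VST lay within 0.5 units, 89.2% had a smaller SD than Pmp22, 92.6% than Prx and 95.2% than Mbp, and the median SD of those genes was 0.180, 0.194 and 0.179. The animal at the 90th percentile had 1.95 times the Pmp22 level of the animal at the 10th percentile, 2.53 times the Prx level and 2.63 times the Mbp level. Counting error was small beside this, at 1.85%, 3.32% and 2.19% of the median count of 2908, 906 and 2082, and at 6.02% for the library with the fewest Prx counts. These percentages cover counting error only, and a read pair can count as 2.

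The 3 genes rose and fell together from animal to animal. Over all animals, after sex and generation were subtracted, Prx and Mbp had Pearson r = 0.938 (Spearman rho = 0.942), Pmp22 and Prx r = 0.910 (rho = 0.915), and Pmp22 and Mbp r = 0.903 (rho = 0.908). Each of these had a permutation p of 1e-05, the smallest that 100000 resamples can give, and an adjusted p of 1e-05 over the 3 pairs. Shared variance was 88.1% for Prx and Mbp, 82.7% for Pmp22 and Prx, and 81.6% for Pmp22 and Mbp. Without the 2 animals farthest from the median of the first gene, r was 0.937, 0.908 and 0.903. Within the 5 library blocks r lay between 0.921 and 0.954 for Prx and Mbp, between 0.883 and 0.921 for Pmp22 and Prx, and between 0.887 and 0.925 for Pmp22 and Mbp. Females and males gave 0.944 and 0.932 for Prx and Mbp, 0.909 and 0.910 for Pmp22 and Prx, and 0.907 and 0.899 for Pmp22 and Mbp. The same female of generation 21 was highest for all 3 genes, at 74.9 CPM of Pmp22, 30.7 CPM of Prx and 68.2 CPM of Mbp. Of the 10 highest libraries for each gene, 5 were shared by all 3, and of the 10 lowest, 1 was.

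**Figure D2:**
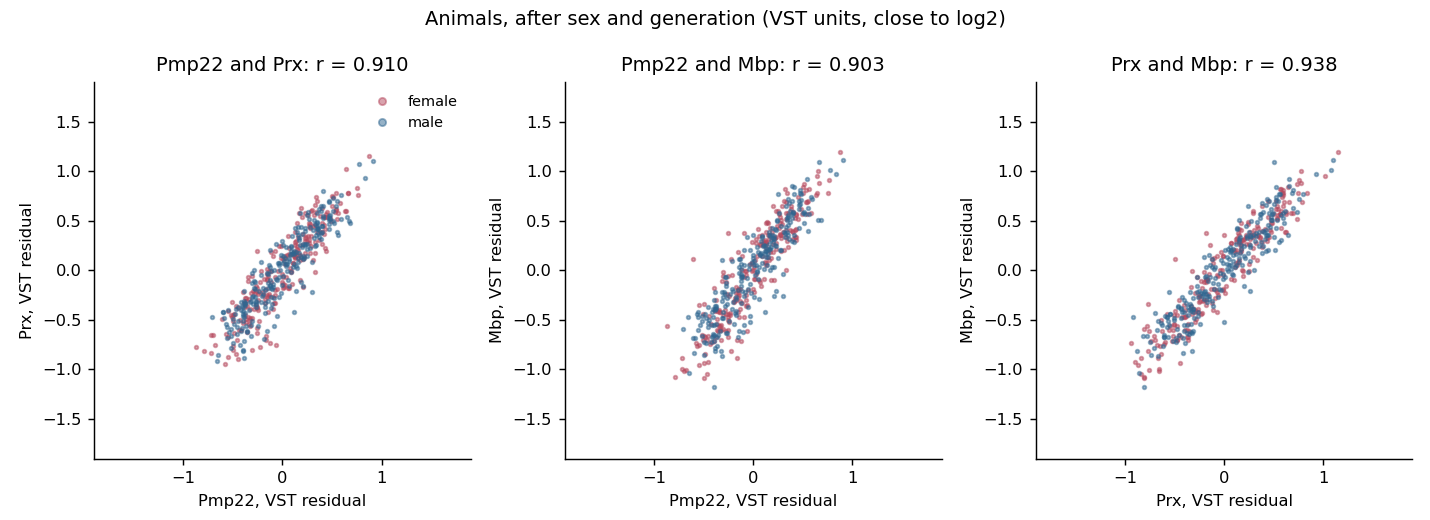
Each point is 1 animal, with the VST of 1 gene on each axis after sex and generation were subtracted (VST units, close to log2), females in red and males in blue. The points lie along a diagonal in all 3 panels, with r = 0.910 for Pmp22 and Prx, 0.903 for Pmp22 and Mbp, and 0.938 for Prx and Mbp, and form no separate clusters.

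The pattern was shared with other genes of myelinating Schwann cells. Correlations across genes are given here as a description over all animals, since all genes share the same libraries. Among the 10 genes most like the mean of the 3, apart from the 3 themselves, were Drp2 (r = 0.911), Mal (0.910), Plekha4 (0.851), Kif1a (0.820), Ugt8a (0.812), Cldn19 (0.810), Vat1l (0.809), Bcas1 (0.809) and Dusp15 (0.802). Drp2 encodes the partner of periaxin in the plasma membrane, Mal a proteolipid of compact myelin, Ugt8a the enzyme that makes galactosylceramide, a main myelin lipid, and Cldn19 a claudin of Schwann cell tight junctions. Kif1a is a kinesin motor best known from axons.

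The lists of each single gene differed in a few places. Dusp15 came among the 10 genes most like Pmp22 (r = 0.776), with Ugt8a at 0.822 and Bcas1 at 0.772. Cldn19 (0.814), Bcas1 (0.806) and Aatk (0.805) came among those of Prx. Vat1l (0.801), Pllp (0.794), a plasmolipin of myelin membranes, and Aatk (0.782) came among those of Mbp. Of the 18823 genes tested, 56 had r of at least 0.5 with Pmp22, 56 with Prx and 54 with Mbp. At the other end no gene reached -0.3. The most negative values were -0.250 for Rps24 with Pmp22, -0.254 for Prpf38b with Prx and -0.248 for Pno1 with Mbp. Tcf7, a transcription factor of T cells, was at -0.244 with Pmp22 and -0.228 with Prx, and Cd79a, a B cell receptor chain, was at -0.234 with Pmp22.

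Lists of Schwann cell genes were chosen by known role, with the 3 genes left out of each, to see how far the shared pattern reached. The 6 other compact myelin genes had a median r of 0.774 with the mean of the 3, with Mal at 0.910 and Cldn11 the lowest at 0.10. The 11 genes of noncompact myelin and the Schwann surface had a median of 0.501, with Drp2 at 0.911, Ncmap, a myelin membrane protein, at 0.715, and Mag, an adhesion molecule facing the axon, at 0.647. Among Schwann transcription factors the median over 11 tested genes was 0.0605. Sox10, which specifies the lineage and drives myelin genes, stood at 0.711, while Egr2, which switches on myelination, was at 0.342. Genes of receptors and axon signals had a median of 0.207, with Erbb3, the neuregulin receptor of Schwann cells, at 0.326, and Ngfr, the low-affinity neurotrophin receptor of immature and nonmyelinating Schwann cells, at 0.123. Nonmyelinating and immature Schwann genes had a median of 0.285, with Cdh19 at 0.485. Myelin lipid enzymes had a median of 0.231, and demyelinating neuropathy genes one of 0.0717.

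**Figure D3:**
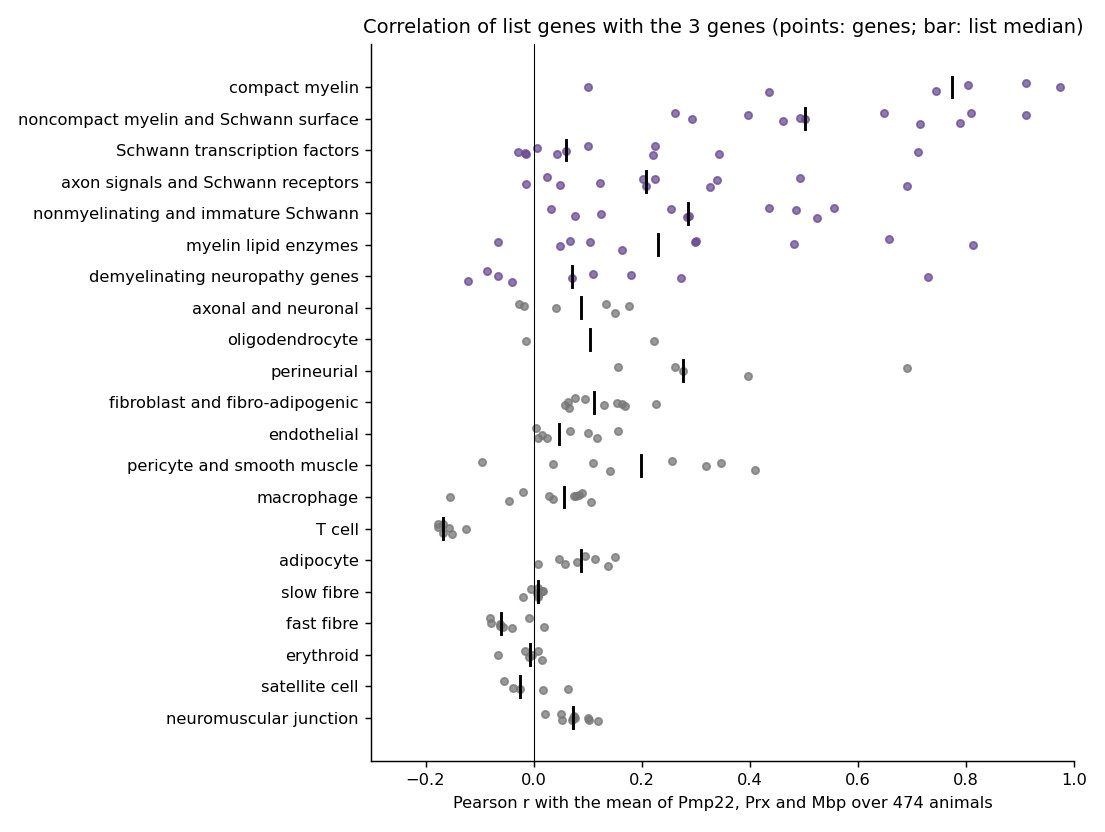
Each point is 1 gene, placed by its Pearson r with the mean of Pmp22, Prx and Mbp over all animals after sex and generation (horizontal axis), in rows by gene list, with Schwann and myelin lists in purple, lists of other cell types in grey and the list median as a black bar. Compact myelin genes have the highest median, at 0.774, and the medians of the grey lists lie between -0.167 and 0.276.

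Among lists of other cell types, the perineurial score followed the 3 genes most closely. In 72 relations of the 3 genes with list scores and library measures, tested by permutation and adjusted together, the compact myelin score had r of 0.880 with Pmp22, 0.887 with Prx and 0.893 with Mbp (adjusted p = 2.4e-05 for each). The noncompact myelin and Schwann surface score had 0.867, 0.887 and 0.884, and the nonmyelinating and immature Schwann score 0.677, 0.615 and 0.624. Myelin lipid enzymes had 0.648, 0.594 and 0.606, and receptors and axon signals 0.594, 0.619 and 0.563. The Schwann transcription factor score had 0.447, 0.435 and 0.412, and the demyelinating neuropathy score 0.387, 0.340 and 0.358. The perineurial score, for the cells that sheathe nerve bundles, had 0.552, 0.592 and 0.563 (Spearman 0.576, 0.612 and 0.582). Of the Schwann lists, only the last 2 lay below the perineurial score for all 3 genes. One of its 5 genes, Itgb4, is also the Schwann cell receptor for laminin and had r = 0.690 with the mean of the 3, above all the other perineurial genes. Pericyte and smooth muscle genes came next at 0.336, 0.337 and 0.279. The slow fibre score had 0.0379, 0.0107 and -0.0333, none past the threshold (adjusted p from 0.503 to 0.865). The fast fibre score reached -0.120 with Pmp22 (adjusted p = 0.0141), with -0.0266 for Prx and -0.0218 for Mbp. Neuromuscular junction genes were at 0.108, 0.175 and 0.154, but from -0.196 to 0.400 within single blocks. The T cell score had -0.205, -0.197 and -0.0994 by Pearson and -0.0667, -0.0813 and -0.0310 by Spearman, where none passed (adjusted p from 0.106 to 0.563). Total count had 0.0187, 0.0212 and 0.0548, and none of these passed the threshold (adjusted p = 0.748, 0.718 and 0.298). The mitochondrial share of counts passed with Prx (-0.129, adjusted p = 0.00877) and Mbp (-0.151, 0.00185) and was at 0.00459 with Pmp22 (0.932). The share taken by the 10 most abundant genes passed with Pmp22 (-0.160, 0.00100) and Prx (-0.0994, 0.0436) and was at -0.0833 with Mbp (0.0940).

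Promoters are shown for members that move together, as far as the RefSeq table of promoter windows (GRCm38.p6, 250 bases before to 50 after each start) holds them. It has 4 windows for Pmp22 and 1 for Prx. Letters of motifs of Schwann cell regulators were searched on both strands: GTGGGNG and GCGTGGGCG for the Egr family, ACAAAG and ACAAT for Sox factors, and GGAATG for Tead factors. The windows below run from 5′ to 3′ on the plus strand, and capitals mark the matches. The first is the most upstream Pmp22 window, chr11:63128732-63129031, and the second is that of Prx, chr7:27499074-27499373.
Pmp22: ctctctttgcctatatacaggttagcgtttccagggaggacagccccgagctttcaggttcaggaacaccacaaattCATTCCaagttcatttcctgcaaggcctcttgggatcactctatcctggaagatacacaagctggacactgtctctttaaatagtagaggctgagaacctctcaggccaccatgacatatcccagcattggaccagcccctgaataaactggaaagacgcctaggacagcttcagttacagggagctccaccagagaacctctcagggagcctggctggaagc
Prx: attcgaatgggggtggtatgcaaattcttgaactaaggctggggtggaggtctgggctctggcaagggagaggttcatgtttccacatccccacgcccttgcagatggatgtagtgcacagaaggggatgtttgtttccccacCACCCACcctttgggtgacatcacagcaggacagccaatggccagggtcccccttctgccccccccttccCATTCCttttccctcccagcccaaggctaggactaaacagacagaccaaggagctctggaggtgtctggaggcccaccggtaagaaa
The Pmp22 window holds 1 match, to GGAATG on the minus strand at bases 78 to 83 of the window, and the other 3 Pmp22 windows hold none. The Prx window holds GTGGGNG on the minus strand at bases 144 to 150 and GGAATG on the minus strand from base 214. Of all 32851 windows, 31.6% hold GTGGGNG, 0.612% GCGTGGGCG, 18.7% ACAAAG, 31.0% ACAAT and 14.7% GGAATG. These short matches are therefore common, and they describe letters in the windows, not bound sites.

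None of the 3 genes was called different between the sexes by edgeR's quasi-likelihood test (Benjamini-Hochberg adjusted p under 0.05 over all genes tested), against 55.0% of the 18823 genes tested that were, 24.4% higher and 30.6% lower in males. Pmp22 was lower in males by -0.07 ± 0.03 on the log2 scale (SE, 95% confidence interval -0.14 to -0.01), with p = 0.0345 before and 0.0610 after adjustment, and 58.6% of males lay below the female median. Prx differed by -0.09 ± 0.05 (-0.18 to 0.00, adjusted p = 0.103), with 58.2% of males below the female median. Mbp differed by 0.01 ± 0.05 (-0.09 to 0.10, adjusted p = 0.917), with 51.0% below it. These intervals do not show that the sexes are equal. Without the 5 libraries that went against their label the differences were -0.07, -0.09 and 0.00 (adjusted p = 0.0556, 0.1002 and 0.945). For Pmp22 the call depended on the scaling and the filter: scaled to the total count alone, where the median of all genes moved from -0.01 to -0.05, it was called at -0.10 (adjusted p = 0.00730) and Prx at -0.12 (0.0252), and Pmp22 was also called when the genes were limited to those of at least 1 CPM in 50% of the libraries (-0.07, 0.0480). Within library blocks, Pmp22 lay between -0.11 and -0.02 and Prx between -0.12 and -0.02.

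Of the 20 compact and noncompact myelin genes tested, 7 were lower in males and 1 was higher, with a median of -0.08 beside -0.01 over all genes. These 40.0% called lie below the 55.0% over all genes. In compact myelin 2 of 8 genes were lower in males and 6 were not called. Cldn11, a claudin, had the largest fall, by 0.59 ± 0.11 on the log2 scale (adjusted p = 6.63e-07), though at only 0.176 and 0.116 CPM. In noncompact myelin and on the Schwann surface, Drp2 fell by 0.29 ± 0.04 (4.20e-11), from 12.8 to 10.5 CPM, and Mpzl2 by 0.45 ± 0.05 (1.02e-16). Ncmap fell by 0.15 ± 0.06 (0.0209), and Cadm4, an adhesion molecule that Schwann cells present to the axon, was higher in males by 0.17 ± 0.04 (4.72e-04). Mag stood at -0.08 ± 0.05 (0.131).

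**Figure D4:**
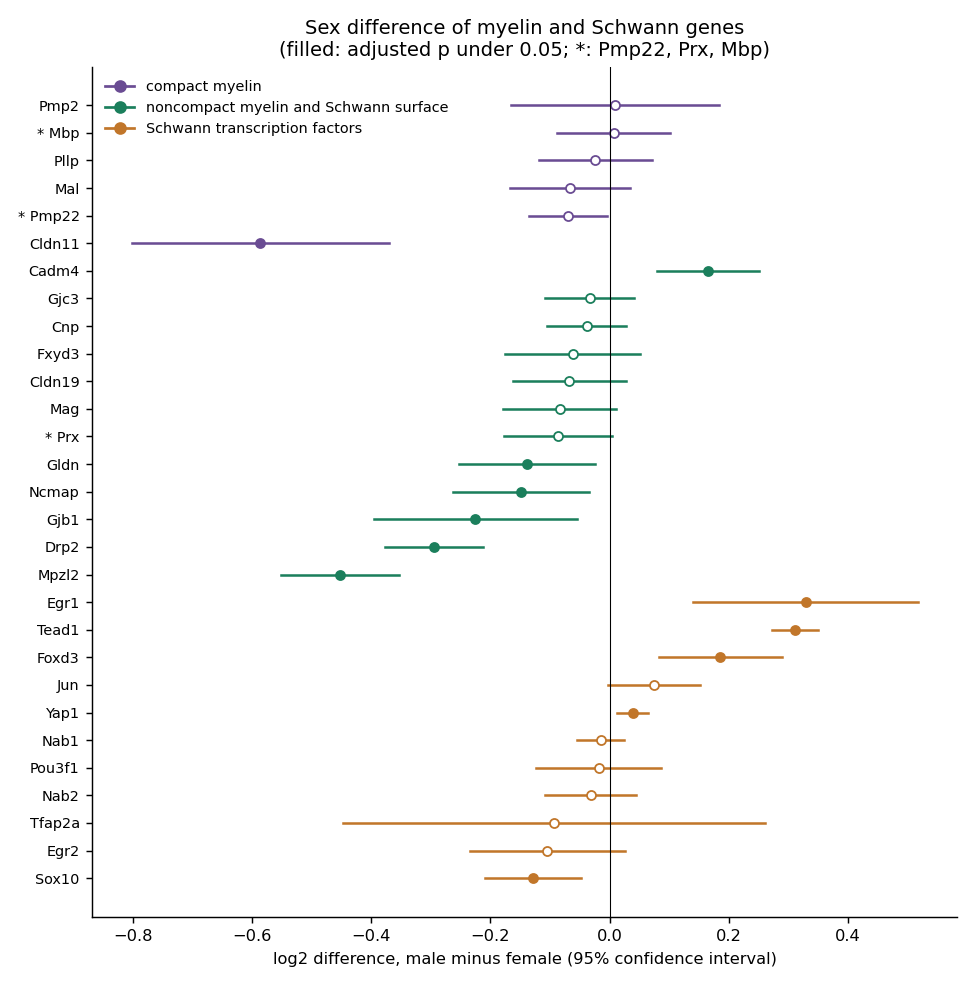
Difference between the sexes, male minus female on the log2 scale, with its 95% confidence interval (horizontal axis) for genes of the compact myelin, noncompact myelin and transcription factor lists (rows). Filled points had an adjusted p under 0.05, and Pmp22, Prx and Mbp, marked with an asterisk, are open, at -0.07, -0.09 and 0.01.

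In all 7 Schwann and myelin lists, 17 of 71 tested genes were higher and 20 lower in males, which at 52.1% called is near the share over all genes. The counts were 14 higher and 29 lower with total count scaling alone, where 57.4% of all genes were called. They were 13 higher and 12 lower with cell-type scores as covariates, where 43.7% of all genes were called. Among transcription factors Sox10 fell by 0.13 ± 0.04 (adjusted p = 0.00402), and Egr1, an immediate-early gene that many cell types switch on, had the largest rise, by 0.33 ± 0.10 (0.00169). Egr2 stood at -0.10 ± 0.07 (0.173). Among receptors and axon signals Ngfr had the largest fall, by 0.83 ± 0.07 (6.26e-25), from 0.927 to 0.518 CPM, and Lama2, a laminin chain of both nerve and muscle basal lamina, the largest rise, by 0.16 ± 0.03 (7.16e-09). Erbb3 stood at -0.04 ± 0.03 (0.175). Of 10 nonmyelinating and immature Schwann genes, 6 fell and 2 rose, with the largest fall in Ncam1 (by 0.24 ± 0.03, 5.85e-17), the largest rise in Gap43 (by 0.32 ± 0.09, 0.00149) and Cdh19 falling by 0.18 ± 0.05 (4.93e-04). Of 10 myelin lipid enzymes 3 rose, the most Elovl1 (by 0.10 ± 0.02, 2.56e-05), and 3 fell. Of 9 demyelinating neuropathy genes 4 rose and none fell, the most Gdap1, by 0.83 ± 0.07 (4.00e-30), from 10.9 to 19.3 CPM. Over animals Gdap1 had r = -0.0865 with the mean of the 3 genes, and which cells its reads came from was not tested.

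Markers of other cells moved with sex too. All 7 T cell genes tested were lower in males, and their sum ran from 0.136 to 143.0 CPM in females and from 0.134 to 56.3 CPM in males. The medians of that sum, 0.832 and 0.651 CPM, lay closer together than the list's median difference of -1.82 on the log2 scale. All 8 slow fibre genes and 7 of 8 adipocyte genes were also lower in males, with 1 adipocyte gene higher, and all 8 endothelial genes were higher. Of 10 fibroblast genes 6 were lower and 2 higher. Of the other cell types whose scores followed the 3 genes most closely, 3 of 5 perineurial genes were lower in males, and 7 of 8 pericyte and smooth muscle genes were higher. Of 10 neuromuscular junction genes, 7 were higher and 1 lower. Over all genes 24.4% were higher and 30.6% lower in males. With scores for fibroblast, endothelial, macrophage, adipocyte and slow fibre genes as covariates, the sex differences were -0.02 for Pmp22, -0.06 for Prx and 0.02 for Mbp (adjusted p = 0.699, 0.455 and 0.839). The part of these cell types in the differences was not tested further.

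The generations did not differ past the threshold in any of the 3 genes, against 7.56% of genes called. The distance from the highest to the lowest fitted generation was 0.14 on the log2 scale for Pmp22 (adjusted p = 0.307), 0.14 for Prx (0.634) and 0.18 for Mbp (0.408). Generation 21 was the highest for all 3 genes, and the lowest was generation 17 for Pmp22, 18 for Prx and 19 for Mbp. No sex by generation interaction was called in any of them, with an adjusted p of 1 for each, against 0.531% of genes. Of the 71 list genes, 7 were called between generations, and 11 with total count scaling alone, where 8.88% of all genes were called. Egr1 spanned 2.28 log2 units (1.39e-45), Egr2 0.89 (6.94e-16), Jun, an injury-response factor of Schwann cells that is also an immediate-early gene, 0.44 (4.73e-09), and Nab2, a co-repressor of the Egr factors, 0.31 (0.00110). S100b, a calcium-binding protein of Schwann cells (0.52, 0.0164), and Litaf (0.18, 4.28e-04) were also called. None of the 20 compact and noncompact myelin genes passed. At the 7.56% called over all genes, this does not set so small a set apart.

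The library numbers in the labels run in stretches that were divided into 5 blocks of 91 to 96 libraries. What these blocks stand for is not stated. Block 2 had the highest level of all 3 genes and block 1 or 4 the lowest. The fitted range between blocks was 0.25 log2 units for Mbp (adjusted p = 0.00999), 0.22 for Prx (0.0324) and 0.15 for Pmp22 (0.0560), so Mbp and Prx were called, against 47.4% of all genes. Mbp was at 31.5 ± 11.5 CPM in block 2 (n = 96) and at 26.5 ± 10.7 CPM in block 1 (n = 96), and block 2 held 54 females and block 1 held 44. By limma on the deposited VST, Prx was no longer called (0.0584). By total count scaling Pmp22 was called too (0.00626).

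Because the 3 genes rise and fall together, their ratios within a library vary less than their levels, and a shift of 1 gene against the others can be seen that the levels alone do not show. This comparison was added after the data were seen. Mbp stood higher relative to Prx and Pmp22 in males. The median ratio of Mbp to Prx in CPM was 2.22 in females and 2.39 in males, and 76.6% of males lay above the female median. The log2 ratio was 1.16 ± 0.180 (SD) in females and 1.26 ± 0.184 in males, a difference of 0.10 ± 0.02 (SE). By a permutation test of the F ratio with generation as covariate this had p = 1e-05, the smallest possible, and an adjusted p of 9e-05 over 9 tests. The ratio of Mbp to Pmp22 was higher in males by 0.09 ± 0.02 (permutation p = 2.3e-04, adjusted p = 0.00103), with 65.3% of males above the female median. With cell-type scores as covariates it was 0.05 and no longer passed (permutation p = 0.0795). The ratio of Prx to Pmp22 differed by -0.01 ± 0.02 (adjusted p = 0.680), with 50.6% of males above the female median.

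**Figure D5:**
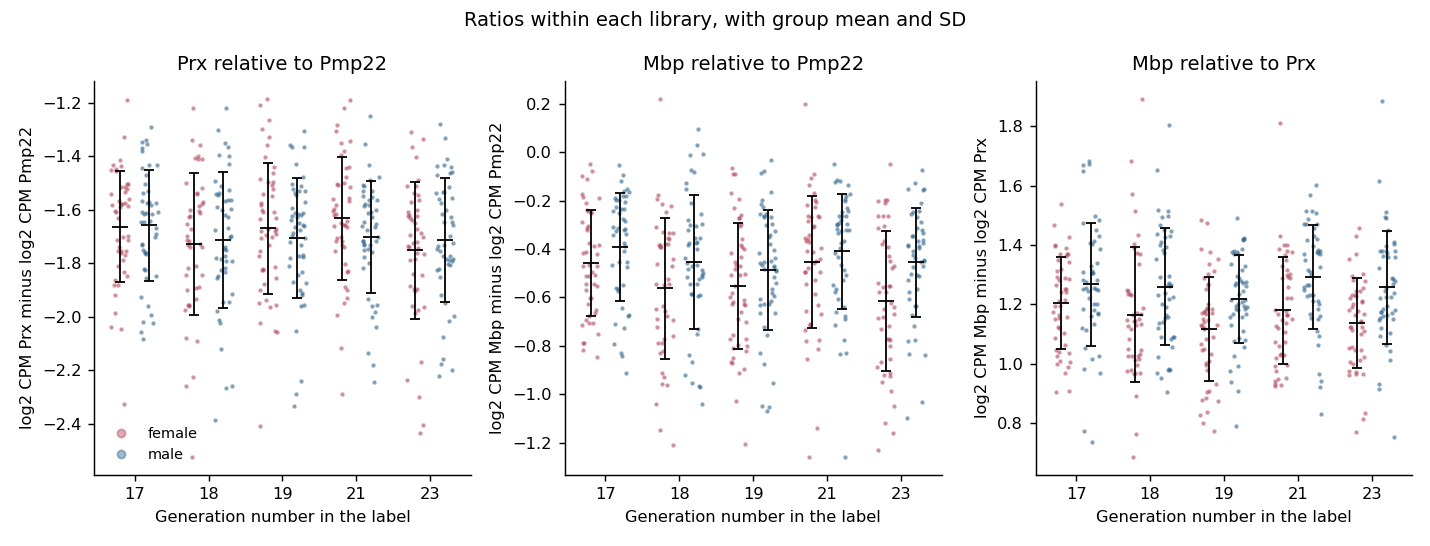
Log2 ratio of Prx to Pmp22, Mbp to Pmp22 and Mbp to Prx in every library (vertical axes, difference of log2 CPM), by the generation number in the label (horizontal axis), with females in red, males in blue and bars for the mean and SD of each group. The male mean of the Mbp to Prx ratio lies above the female mean in each of the 5 generations, by 0.06 to 0.12.

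The higher Mbp to Prx ratio of males was seen in all 5 generations, by 0.06 to 0.12, and in all 5 library blocks, by 0.07 to 0.17. Taken alone, generation 17 (p = 0.0996), block 1 (0.0547) and block 4 (0.0535) did not pass a permutation test. Mbp to Pmp22 was higher in males in each generation and block as well, by 0.04 to 0.18, but did not pass within generations 17, 18, 19 and 21 (p from 0.0669 to 0.416) or blocks 1 and 3 (0.197 and 0.186). The Mbp to Pmp22 ratio also spanned 0.11 between generations (adjusted p = 0.0114) and 0.12 between blocks (0.0266), and the Prx to Pmp22 ratio 0.09 between blocks (0.0292). In the edgeR fit with the score of the 17 other compact and noncompact myelin genes as a covariate, also added afterwards, Mbp was higher in males by 0.18 ± 0.02 (adjusted p = 1.17e-17), Prx by 0.08 ± 0.02 (1.33e-04) and Pmp22 by 0.04 ± 0.01 (0.0138). That score includes Drp2, Mpzl2 and other genes that were lower in males.

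The ratios also followed other cell types differently, in 42 relations of 3 ratios with 14 list scores, added after the data were seen. The Mbp to Prx ratio rose with the macrophage score (r = 0.254, Spearman rho = 0.161, adjusted p = 7e-05) and the T cell score (r = 0.261, rho = 0.124, adjusted p = 7e-05), and without the 2 farthest animals r was 0.213 and 0.183. Within blocks these lay between 0.107 and 0.354 and between 0.160 and 0.402. With the same 2 scores the Mbp to Pmp22 ratio had r = 0.0409 and 0.0870 (adjusted p = 0.522 and 0.103). The Prx to Pmp22 ratio had r = -0.153 (adjusted p = 0.00357) and -0.108 (0.0374). By Spearman neither of these passed (adjusted p = 0.0574 and 0.254). T cell genes were lower in males, though their median sums were close, at 0.832 CPM in females and 0.651 CPM in males. The sex difference of the Mbp to Prx ratio was 0.11 with the T cell score as a covariate and 0.09 with the other cell-type scores. Relative to Prx, Pmp22 rose with the fibroblast score: the Prx to Pmp22 ratio had r = -0.213 with it (rho = -0.152, adjusted p = 7e-05), -0.218 without the 2 farthest animals and between -0.312 and -0.122 within blocks. The Prx to Pmp22 ratio also rose with the perineurial score, at r = 0.426 (rho = 0.437, adjusted p = 7e-05), from 0.327 to 0.564 within blocks. The Mbp to Pmp22 ratio did so too, at r = 0.384 (rho = 0.395, adjusted p = 7e-05), from 0.252 to 0.536 within blocks. The Prx to Pmp22 ratio had r = 0.211 with the pericyte and smooth muscle score (adjusted p = 1.2e-04), from 0.162 to 0.303 within blocks. With the neuromuscular junction score it also had 0.211 (7e-05), but from -0.114 to 0.415 within blocks. The Mbp to Prx ratio had r = 0.151 with the adipocyte score (adjusted p = 0.00357), where rho was 0.0967 and did not pass (adjusted p = 0.0882).

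Neighbours on the chromosome were compared with each gene by their r over animals. Within 1 Mb of Pmp22, 25 tested genes had a median absolute r of 0.0579 with it, beside 0.0472 over all genes, and the largest was -0.185 for 2410006H16Rik. Prx had 53 neighbours with a median of 0.0553, beside 0.0553 over all genes, and the largest was 0.257 for Numbl. After the other 2 of the 3 genes were subtracted as well, the largest near Prx was -0.275 for Gmfg, 0.934 Mb away and rank 32 of all genes by absolute r, a gene named after its value was seen. The same value near Pmp22 was -0.263 for 2410006H16Rik, at rank 1137, and near Mbp -0.0529 for Gm17383, at rank 10827. Mbp had 7 neighbours with a median of 0.0206, beside 0.0517, and the largest was -0.0527 for Zfp236.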

How the data were processed

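Polyadenylated RNA of skeletal muscle was sequenced as read pairs, 1 library per animal. The authors aligned both mates as single reads to a joint transcriptome of the founders, and EMASE in GBRS gave expected counts for each gene. The deposited expected counts are unnormalised, and 68.6% are whole numbers to the sixth decimal. Versions and strand use are not given in the sources used here. A second deposited matrix, made by the authors, holds a score, the variance stabilising transform (VST) of DESeq2. Their methods describe removal of batch effects, but in the deposited score library block still accounted for the shares of variance given above, and by limma Mbp differed between blocks (adjusted p = 0.0186) while Prx (0.0584) and Pmp22 (0.0737) were not called. Gene positions matched GENCODE M21 (GRCm38) in 99.5% of starts and 99.5% of ends. The deposited start of Prx lies 1936 bases upstream of the GENCODE start. All columns were matched to samples by animal number, and no 2 libraries were identical. The columns of 1 female and 1 male stand in each other's place in the column order, and both are among the 5 libraries against their sex label. The columns of 2 males also stand in each other's place. Whether any were exchanged was not tested.

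Expected counts were rounded, and R 4.3.3 was used with edgeR 4.0.16 (quasi-likelihood F-test, trended dispersion, TMM factors of 0.871 to 1.29, filterByExpr with a minimum count of 10), limma 3.58.1 and DESeq2 1.42.0. Sex was tested with generation as covariate and generation with sex. Block was tested with both, and the interaction with both main effects. P-values were adjusted by Benjamini-Hochberg over all 18823 genes, with a threshold of 0.05. CPM used TMM-scaled totals, and log2 CPM a prior count of 2. A list score is the mean z-score of VST over its genes. Correlations used VST residuals and 100000 permutations (2-sided). Ratio tests shuffled the residuals of the model without the tested term. Scripts were tested on simulated data. Python 3.11.15, numpy 2.4.6 and pandas 2.3.3 were used. Blocks restart after 96 numbers or a gap of more than 3. A library went against its label when a female had Xist under 10 CPM or at least 3 Ddx3y counts, or a male had Ddx3y under 10 CPM or Xist of at least 10 CPM. The wave covariate of the study could not be fitted, since the labels do not give it. The 3 genes, the gene lists and the rules were chosen with earlier results of these data known. Named genes were the 3 genes and a set of Schwann genes, in each of the 7 Schwann and myelin lists the called genes with the largest rise and fall between sexes and all called between generations, the 10 most alike and 5 most negative genes, and the neighbour within 1 Mb with the largest absolute r. Some genes under these rules, and results that need them, are not reported here, though list counts, medians and scores include every listed gene with values. Animals are separate samples, and nothing further is stated about litters.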

Additional observations from a re-analysis of the deposited data

How the results depend on the processing

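Of 63 alternatives for the sex differences of the 3 genes, 49 kept the direction and the side of the threshold. Pmp22 became called at -0.103 with total count alone and at -0.0723 with genes of at least 1 CPM in 50% of the libraries, and turned to 0.0401 with the myelin score as covariate. Prx became called at -0.118 with total count alone and turned to 0.00331 with the score of the first 3 Schwann lists, 0.0788 with the myelin score and 0.00328 within generation 23. Mbp turned to -0.0266 with total count alone, -0.0961, -0.0188 and -0.0449 within generations 17, 19 and 21 and -0.0167 within block 2, and became called at 0.104 with the Schwann score and 0.185 with the myelin score. Between generations, Prx (0.139) and Mbp (0.198) became called with the Schwann score, which holds 4 transcription factors that were themselves called between generations. Between blocks, Pmp22 became called with total count alone (0.184) and Prx was lost by limma on the VST (0.195). The interaction stayed uncalled in all 6. The list genes lower in males were 12 with cell-type scores, and up to 29 with total count alone, in place of 20. Over all genes, 43.7% and 57.4% were called in either direction in these 2 fits, beside 55.0% in the main one. The list genes called between generations were 11 with total count alone, in place of 7, beside 8.88% and 7.56% of all genes. The pair correlations kept their direction and call in all 42, the lowest being 0.883.

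The male excess of Mbp over Prx and Pmp22 kept its direction in all 14 alternatives each. It no longer passed for Mbp over Prx within generation 17 (0.0621) and blocks 1 and 4 (0.0682 and 0.0774), nor for Mbp over Pmp22 with cell-type scores (0.0522), within generations 17, 18, 19 and 21 (0.0671, 0.109, 0.0656 and 0.0436) and blocks 1 and 3 (0.0775 and 0.0623). The uncalled ratio of Prx to Pmp22 changed sign on the VST (2.11e-04), within generations 17, 18 and 23 (0.00507, 0.0149 and 0.0389) and blocks 1, 2, 4 and 5 (0.00929, 0.00652, 0.0290 and 0.00897). The causes were not tested. No paired analysis was possible because no animal appears in more than 1 group. With 45 to 50 animals per group, single animals were not left out in turn and no outlier test was run.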

Other observations

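After the other 2 genes were subtracted along with sex and generation, what remained of each gene followed different genes. The genes named here were chosen after their values were seen and are given as a description over all animals, positive relations only. For Prx, Ms4a6b and Stk17b had a larger absolute r than Cldn19, and Emb, Ctss and Cd33 a larger one than Plekha4. None of these was among the positive ones. The rest of Pmp22 followed Aspn (r = 0.495), Mfap5 (0.480), Fstl1 (0.479), Fndc3b (0.473), Dsel (0.466) and Col5a2 (0.462), of which Aspn, Mfap5 and Col5a2 encode proteins of the extracellular matrix. The rest of Prx followed Aatk (0.335), Cldn19 (0.318), Plekha4 (0.304), Sox10 (0.294) and Bcas1 (0.269), all but Sox10 also among the genes most like Prx before this subtraction. The rest of Mbp followed Cnp (0.362), an enzyme of noncompact myelin, Mast3 (0.357), Csf2rb (0.353), Csf2rb2 (0.347) and Cd82 (0.340), and Csf2rb is a receptor chain of myeloid cells.

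The distribution over animals was flat. The excess kurtosis of the VST residuals, which is 0 for a normal distribution, was -0.716 for Pmp22, -0.780 for Prx and -0.851 for Mbp, beside a median of 0.411 over all genes tested. A lower value was found in 2.45%, 2.03% and 1.61% of genes. Skewness was between -0.0557 and 0.0524.

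A different animal was lowest for each gene. The animals lowest for Pmp22 and for Prx were near the low end of the other gene, with 1.27% of animals below them in each case. For Mbp, 11.8% of animals lay below the animal lowest for Pmp22 (19.02 CPM) and 20.3% below the animal lowest for Prx (4.95 CPM). For the animal lowest for Mbp (11.1 CPM), 7.81% of animals lay below it in Pmp22 and 0.422% in Prx.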
